A study of Homo sapiens with 2 samples.

Results

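Away from promoters, 5316 short CpG-poor sites were unmethylated in both acute myeloid leukemia (AML) cell lines, although the sequence around them was on average highly methylated in AML5. They were found among 1386259 eligible 500 bp bins of the 22 autosomes, each over 5 kb from every annotated transcription start site (TSS) and with 3 to 9 CpG dinucleotides read 10 or more times in both lines. The level of a bin is the mean, over those CpG dinucleotides, of methylated calls divided by all calls. A bin was kept as a site where this level was below 20% in both lines and the 2 neighbouring 2 kb flanks averaged above 70% in AML5. The sites were thus chosen by their measured bin levels in both lines and by the AML5 flank levels, so bin levels and AML5 flank levels are given as a description. The average hid a flank at or below 70% on 1 side in AML5 at 1735 sites (32.6%), and 352 sites had a flank with fewer than 3 CpG dinucleotides. At 199 sites (3.74%) the reference holds more than 9 CpG dinucleotides, up to 37, of which at most 9 were read 10 times, so these are not CpG-poor. The flank condition alone held for 940416 eligible bins, which serve below as the bins with highly methylated flanks.

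Whole-genome bisulfite sequencing was done on 1 library of OCI-AML3, labelled DNMT3A mutant, and 1 library of AML5 (OCI-AML5 in the labels), labelled wild type. Both are established cell lines grown from human AML, cultured in DMEM with 10% FBS at 5% CO2 and given no treatment. The study describes the OCI-AML3 mutation as a heterozygous missense change, which the methylation tables cannot check. With 1 library a line there is no replicate, and the DNMT3A genotype cannot be told apart from any other difference between the lines.

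As background, most CpG dinucleotides of a mammalian genome are methylated, and DNMT3A adds methyl groups to cytosines that carry none. The main exceptions are CpG islands, most of them at promoters. A further class consists of short low-methylated stretches of CpG-poor sequence, which in many cell types lie at enhancers and at sites held by CTCF, the zinc finger protein that marks chromatin boundaries. In blood cells, enhancers are often bound by SPI1 and other ETS factors, RUNX1, C/EBP proteins and AP-1.

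The OCI-AML3 library gave 878951432 autosomal calls, 66.6% of them methylated, at a median of 28 per CpG dinucleotide. The AML5 library gave 868999240, 75.5% of them methylated, at a median of 31. A site rested on 30 to 1023 calls in OCI-AML3 (median 132) and 31 to 1126 in AML5 (median 149). Taking 3 calls as the least that can be told from 0, methylation below 2.27% and 2.01% was not detectable at the median site. For the sites with the fewest calls these floors were 10.0% and 9.68%. Site depth was close to that of all eligible bins, with median values of 30.7 beside 29.3 for the mutant line, and of 35.3 beside 34.3 for AML5, in calls per CpG dinucleotide. The 3 sites just inside the 20% limit had 53 of 305, 41 of 194 and 35 of 177 AML5 calls methylated. The 3 bins just outside it included 1 with 12 of 61 AML5 calls methylated and 1 with 21 of 81 OCI-AML3 calls methylated. AML5 flanks nearest to the 70% limit averaged 70.0016% to 70.0025% inside it and 69.9943% to 69.9975% outside.

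The sequences of 4 sites that hold a CTCF motif show what such a site looks like: the motif in capitals, in otherwise CpG-poor DNA. They are those with the largest contrast, meaning the mean flank level of both lines minus the mean bin level of both lines. Coordinates are GRCh37 (hg19), sequences are from that reference, and each is written along the strand of its motif. All 4 lie in introns of the genes that name them.
CMYA5 site, chr5:78998870-78999009, plus strand: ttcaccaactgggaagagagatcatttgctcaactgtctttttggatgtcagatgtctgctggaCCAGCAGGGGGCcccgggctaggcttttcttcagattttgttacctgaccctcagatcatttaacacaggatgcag
LRP2 site, chr2:169988566-169988705, minus strand: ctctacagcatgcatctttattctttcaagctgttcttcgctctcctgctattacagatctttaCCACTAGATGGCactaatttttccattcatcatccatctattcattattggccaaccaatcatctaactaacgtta
DCAF4 site, chr14:73415337-73415476, minus strand: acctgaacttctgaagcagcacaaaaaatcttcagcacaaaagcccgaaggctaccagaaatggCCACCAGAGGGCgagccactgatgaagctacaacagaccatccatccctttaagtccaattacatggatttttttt
SHLD1 site, chr20:5769124-5769263, minus strand: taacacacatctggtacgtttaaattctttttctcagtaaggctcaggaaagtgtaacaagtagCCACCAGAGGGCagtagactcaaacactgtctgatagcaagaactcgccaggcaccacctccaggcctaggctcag

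The CMYA5 site, in chr5:78998501-78999000, had 0 methylated of 69 calls in OCI-AML3 and 3 of 118 in AML5, between flanks of 92.2% and 96.9%. The LRP2 site, in chr2:169988501-169989000, had 0 of 122 and 1 of 117 calls methylated, between flanks of 89.9% and 95.3%. The DCAF4 site, in chr14:73415001-73415500, had 2 of 124 and 2 of 88 calls methylated, between flanks of 90.4% and 95.3%. At all 3 the bin levels of the lines were within 3 percentage points of each other, while the flanks were lower in OCI-AML3. The SHLD1 site, in chr20:5769001-5769500, had 2 of 104 and 7 of 159 calls methylated, between flanks of 89.5% and 96.3%.

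The sequences of 3 sites nearest to blood genes show other letters found at these sites. They are sites of large contrast among those closest to the TSS of a listed blood transcription factor or myeloid gene, and the 240 bases with most matches are printed. Capitals mark matches to the ETS pattern GAGGAAG, the RUNX pattern TGTGGTT, the AP-1 pattern TGANTCA or the C/EBP pattern TTGCNNAA, on either strand. Such matches, not marked above, also occurred in bins of the CTCF examples. They were AP-1 and C/EBP at the CMYA5 site, AP-1 at LRP2 and ETS at SHLD1.
PTPRC site, chr1:198746016-198746255, plus strand: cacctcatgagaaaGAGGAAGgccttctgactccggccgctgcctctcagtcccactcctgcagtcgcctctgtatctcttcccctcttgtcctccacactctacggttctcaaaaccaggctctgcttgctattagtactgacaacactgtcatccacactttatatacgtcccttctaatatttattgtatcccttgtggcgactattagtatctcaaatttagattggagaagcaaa
RUNX2 site, chr6:45413619-45413858, plus strand: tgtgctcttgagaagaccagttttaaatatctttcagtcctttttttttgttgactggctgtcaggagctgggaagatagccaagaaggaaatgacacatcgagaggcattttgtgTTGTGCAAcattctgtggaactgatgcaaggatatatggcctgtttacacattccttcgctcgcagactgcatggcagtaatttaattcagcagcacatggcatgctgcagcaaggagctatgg
ZEB2 site, chr2:146450740-146450979, plus strand: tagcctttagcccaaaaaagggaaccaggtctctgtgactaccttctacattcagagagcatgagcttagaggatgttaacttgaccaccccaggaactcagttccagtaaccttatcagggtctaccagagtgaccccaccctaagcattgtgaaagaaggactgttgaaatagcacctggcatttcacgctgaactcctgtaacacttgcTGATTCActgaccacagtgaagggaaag

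The PTPRC site holds an ETS match, the RUNX2 site a C/EBP match and the ZEB2 site an AP-1 match.

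The motif of CTCF was rare in the background and more often present at the sites. A 12-letter CTCF pattern was found on either strand in 363 of the 5316 sites (6.83%), beside 0.433% of all eligible bins and 0.451% of bins with highly methylated flanks. The share was 3.88% where CpG dinucleotides were counted in the reference, and a looser pattern occurred in 13.7% of sites and 3.97% of eligible bins. Bins below 20% in OCI-AML3 and above 70% in AML5, with the same AML5 flanks, held it in 0.400% of 10513 cases. The same letters in reversed order occurred in 1 site and in 0.0721% of eligible bins. Reversed, they begin with a CpG dinucleotide, which the motif itself does not require. In bins with few CpG dinucleotides this count is therefore no matched control of base composition. The CTCF share was 4.11% of sites with 3 CpG dinucleotides, 6.33% of those with 4 or 5 and 11.1% of those with 6 to 9. Among bins with highly methylated flanks the shares by the same numbers were 0.336%, 0.427% and 0.564%.

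The motifs of blood transcription factors were more widely spread. ETS matches were present in 27.8% of sites and 13.6% of eligible bins, AP-1 matches in 29.0% and 15.3%, and RUNX matches in 15.7% and 9.45%. C/EBP matches were present in 33.1% of sites and 23.5% of eligible bins. E-box matches (CAGCTG), the letters read by many helix-loop-helix proteins, were present in 26.3% and 18.9%. For ETS, AP-1 and RUNX the reversed letters differed less or went the other way: 14.4% of sites and 11.3% of eligible bins for GAAGGAG, 12.9% and 10.7% for ACTNAGT, 6.70% and 7.41% for TTGGTGT. At least 1 of the ETS, RUNX, AP-1 and C/EBP patterns occurred in 3783 sites (71.2%), beside 49.3% of eligible bins, and at least 3 of them occurred in 296 sites (5.57%), beside 1.16%. Neither these nor the CTCF pattern was present in 1368 sites (25.7%), beside 50.5% of eligible bins. The sites and the eligible bins had nearly the same base composition, with median GC contents of 43.2% and 43.0%.

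Other patterns were close to the background. GATA matches (AGATAA) occurred in 30.4% of sites and 28.7% of eligible bins, MEIS matches (TGACAG) in 31.9% and 30.6%, and HOX matches (TGATTNAT) in 10.3% and 8.94%. The YY1 pattern (AAGATGGC) was found in 133 sites and 2.44% of eligible bins, the CREB pattern (TGACGTCA) in 14 sites and 0.224%, and REST in 1 site and 0.0274%. The AP-1 and HOX patterns can overlap in the same letters. A match describes the letters of the reference and does not show that a protein was bound.

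Centred on the CTCF motif, methylation rose and fell in a regular pattern on both sides, in both lines. The 405 CpG dinucleotides within 25 bp of the motif averaged 0.277% ± 0.057 (SE) in OCI-AML3 and 0.932% ± 0.214 in AML5. The mean stayed low to about 175 bp and reached 66.9% ± 3.4 and 77.2% ± 3.0 at 225 to 250 bp. It then fell to 22.4% ± 2.6 and 33.8% ± 2.9 at 300 to 325 bp, and rose again to 78.3% ± 2.5 and 85.2% ± 2.0 at 400 to 425 bp. It was seen on the upstream and on the downstream side of the motif, which hold different CpG dinucleotides.

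Further minima followed. The level at 475 to 500 bp was 39.3% ± 2.6 in OCI-AML3 and 63.1% ± 2.4 in AML5, and at 550 to 575 bp it was 82.4% ± 1.9 and 89.4% ± 1.3. At 650 to 675 bp it was 56.5% ± 2.8 and 78.0% ± 2.0, at 725 to 750 bp 78.1% ± 2.0 and 90.5% ± 1.1, and at 850 to 875 bp 64.6% ± 2.7 and 79.3% ± 2.2. The lowest windows began at 325, 475, 650 and 850 bp in OCI-AML3 and at 300, 475, 625 and 850 bp in AML5, so that the steps measured 150 to 225 bp. Beyond 500 bp every CpG dinucleotide was outside the bin, but inside the 2 kb flanks whose AML5 average is part of the rule. CTCF is known from other work to sit between arrays of regularly placed nucleosomes, which these tables did not measure.

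The difference between the lines, OCI-AML3 minus AML5, varied between the windows. It was -23.9 percentage points ± 2.0 (SE) at 475 to 500 bp, the lowest window of both lines there. Around the innermost minimum it was -11.4 ± 2.1 at 300 to 325 bp, the lowest window of AML5, and -20.2 ± 2.3 at 325 to 350 bp, the lowest of OCI-AML3. Around the next minimum outwards of 500 bp it was -14.2 ± 2.0 at 625 to 650 bp, the lowest of AML5, and -21.5 ± 2.1 at 650 to 675 bp, the lowest of OCI-AML3. At the minimum at 850 to 875 bp it was -14.6 ± 2.1. Between the minima it was -6.93 ± 2.1 at 400 to 425 bp, -6.92 ± 1.6 at 550 to 575 bp and -12.1 ± 2.0 at 575 to 600 bp. Farther out, at the maximum at 725 to 750 bp, it was -12.5 ± 1.7, and at the maximum at 225 to 250 bp it was -10.2 ± 2.2. The standard errors cover the spread between CpG dinucleotides within 1 library each. Every window lay in the bin or in the 2 kb flanks. The rule used the bin levels of both lines and the AML5 flank average, and left the OCI-AML3 flanks free. These differences are therefore a description.

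Profiles around other bins were flatter. In 1890 bins with a CTCF motif, highly methylated AML5 flanks and bin levels above 70% in both lines, every 25 bp window out to 1 kb lay between 81.0% and 87.2% in OCI-AML3 and between 87.5% and 91.1% in AML5. These bins were chosen for high levels, so the flat windows inside the bin follow from the choice and the wider ones are a description. There the largest fall from one window to the next was 2.02 percentage points in AML5, beside 21.6 at the CTCF sites. Around the ETS match in 1415 sites without a CTCF motif, AML5 methylation rose from 5.05% ± 0.40 next to the motif to 86.1% ± 0.83 at 975 to 1000 bp, with no fall over 1.24 points. The largest falls around RUNX, AP-1 and C/EBP matches were 2.28, 2.03 and 1.17 points in AML5. These windows hold 304 to 903 CpG dinucleotides, and those of the CTCF sites 116 to 405.

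Sites with a CTCF motif were also set beside the other sites, without a test. Their median levels were 1.92% in OCI-AML3 and 6.90% in AML5, beside 2.22% and 7.02% at the 4953 sites without one. Their median flank difference between the lines was -11.9 percentage points, beside -9.86. They lay a median of 14337 bp from the nearest TSS, beside 17431 bp, and 49.0% of them were inside a gene, beside 56.4%. The motif was on the plus strand at 159 sites and on the minus strand at 204, and 7 sites held more than 1.

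Over all sites, the median bin level was 2.19% in OCI-AML3 (interquartile range 0 to 7.72%) and 7.02% in AML5 (1.70% to 13.9%). It was lower in OCI-AML3 at 3532 sites (66.4%), higher at 1416 (26.6%) and equal at 368. No methylated call was seen at 1364 sites in OCI-AML3, at 650 in AML5 and at 362 in both. Levels were below 10% in both lines at 2864 sites (53.9%).

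CpG dinucleotides of the same bins that were read under 10 times in at least 1 line did not enter the rule. In OCI-AML3, 22.96% of their 22292 calls were methylated (Wilson 95% interval 22.4% to 23.5%), and in AML5 35.7% of 45907 calls (35.3% to 36.1%). In bins with highly methylated flanks the same kind of CpG dinucleotide was methylated in 74.7% and 84.2% of calls. These unused CpG dinucleotides were thus far below the background in both lines, yet well above the levels that chose the sites. The intervals cover counting error only, and calls from 1 read or its PCR copies are not independent.

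The low stretch was narrow, which follows in part from the choice of sites. The rule holds the bin low in both lines and the average of the AML5 flanks high. The low centre of both lines and the AML5 rise within 2 kb are therefore a description. The OCI-AML3 flanks were left free. Averaged over sites in 250 bp windows, methylation next to the bin centre was 4.79% in OCI-AML3 and 8.07% in AML5, and at 2 kb it was 75.9% and 85.2%. At the same distance the bins with highly methylated flanks averaged 78.8% and 87.2%.

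The width of the unmethylated run was measured from the bin outwards, over consecutive CpG dinucleotides below 50%. Its median was 604 bp in OCI-AML3 (interquartile range 336 to 972 bp) and 399 bp in AML5 (226 to 631 bp). The run was wider in OCI-AML3 at 2684 sites (50.5%), wider in AML5 at 471 (8.86%) and the same at 2161. Runs over 2000 bp were found at 236 sites in OCI-AML3 and at 13 in AML5. The rule holds the 2 kb flanks above 70% in AML5 and leaves those of OCI-AML3 free, which limits AML5 widths, so the difference in width is a description that the choice of sites favours. At sites with a CTCF motif the medians were 486 and 367 bp.

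The 2 kb flanks were lower in OCI-AML3. Their median was 71.0% (60.2% to 81.1%) in OCI-AML3 and 81.5% (75.3% to 88.2%) in AML5, the second being held above 70% by the rule. The median difference was -9.99 percentage points (interquartile range -18.4 to -3.91), beside -7.42 over all eligible bins and -6.52 over bins with highly methylated flanks. It was -4.53 at the 2820 sites whose flanks were above 70% in both lines. Flanks were lower in OCI-AML3 at 4744 sites (89.2%), beside 85.5% of bins with highly methylated flanks. They stayed above 70% in OCI-AML3 at 2820 sites (53.0%), beside 72.9%, and were below 50% at 530 sites (9.97%), beside 6.66%. Bins with highly methylated flanks had median flank levels of 81.4% in OCI-AML3 and 89.2% in AML5. The flanks of the sites thus lay nearer to these limits in AML5 as well, so the shares do not measure loss alone.

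**Figure D1:**
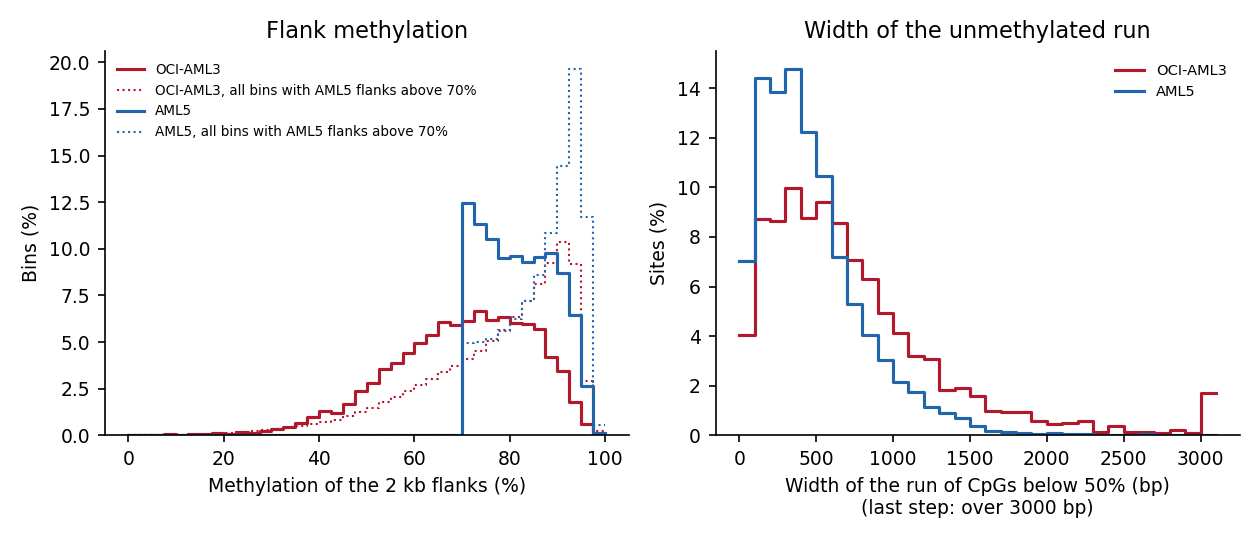
Left, distribution of flank methylation (%, horizontal) as percent of bins (vertical) for the sites (solid) and all bins with highly methylated AML5 flanks (dotted); the AML5 lines start at 70% because of the rule. Right, percent of sites by width in bp of the unmethylated run, extended from the bin over CpG dinucleotides below 50%. OCI-AML3 (red, median 604 bp) extends to greater widths than AML5 (blue, median 399 bp), whose widths are limited by the same rule.

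The sequence 2 to 5 kb from the bin was not used by the rule, and was tested with Fisher's exact test on pooled calls, two-sided, with Benjamini-Hochberg adjustment over all 1357535 eligible bins with at least 10 CpG dinucleotides there. A bin was called where the adjusted p was under 0.05 and the levels differed by at least 10 percentage points. These outer flanks were called lower in OCI-AML3 at 2118 of 5244 sites tested (40.4%), while percent called was 40.6% over all eligible bins and 35.2% over those with highly methylated flanks. They were called higher at 90 sites (1.72%), beside 6.1% and 2.08%. The median difference was -7.50 percentage points at the sites, -7.29 over all eligible bins and -6.25 over bins with highly methylated flanks. The share called lower was thus close to that of all eligible bins and above that of bins with highly methylated flanks. At 72 sites there were too few CpG dinucleotides for the test. The test compares 2 libraries and counts every call as independent, so it covers read sampling and not the difference between genotypes.

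The share of sites with outer flanks called lower was also taken by motif, without a test of the difference. It was 36.0% at sites with an ETS match and 42.1% at those without, 36.0% and 42.2% for AP-1, 35.4% and 41.3% for RUNX, and 36.6% and 42.2% for C/EBP. For CTCF it was 42.9% with the motif and 40.2% without, and for GATA 41.4% and 39.9%.

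The overlap between the lines was counted among bins with AML5 flanks above 70%. That condition admits bins inside wide OCI-AML3 losses but not inside wide AML5 losses, so the shares below rest partly on it. Of 7124 bins below 20% in AML5 with highly methylated flanks, 5316 (74.6%) were below 20% in OCI-AML3, 1560 (21.9%) lay between 20% and 70%, and 248 (3.48%) were above 70%. Of 31573 such bins below 20% in OCI-AML3, the 5316 sites made up 16.8%, and 10513 (33.3%) were above 70% in AML5. Those 10513 bins held ETS matches in 14.8%, AP-1 matches in 18.3%, RUNX matches in 12.8% and C/EBP matches in 29.8% of cases, against 27.8%, 29.0%, 15.7% and 33.1% at the sites. Their outer flanks were called lower in 76.1% of 10163 tested. The 248 bins unmethylated only in AML5 held ETS matches in 27.8% and a CTCF motif in 3 cases.

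Among sites with 5 or more CpG dinucleotides, the 8 of largest contrast were almost free of methylation inside flanks above 91%. At chr4:107611501-107612000, in an intron of a gene without a symbol, 0 of 177 calls were methylated in OCI-AML3 and 1 of 219 in AML5, between flanks of 97.2% and 96.6%. At chr12:16017001-16017500, in an intron of EPS8, which encodes a regulator of actin, the counts were 0 of 204 and 0 of 163, between flanks of 94.7% and 96.3%. This bin holds an ETS and a RUNX match. At chr9:93277501-93278000, in an intron of LINC01501, they were 0 of 118 and 2 of 124, between flanks of 96.2% and 96.0%. At the intergenic chr3:22516001-22516500 they were 0 of 188 and 3 of 270, between flanks of 95.3% and 95.1%, with an AP-1 and an E-box match. In these the lines differed by less than 2 percentage points in the bin and in the flanks.

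The other 4 were of the same kind. A site in an intron of DNMBP (chr10:101754001-101754500), with ETS, RUNX and C/EBP matches, had 0 of 111 and 2 of 152 calls methylated. The site near PTPRC (chr1:198746001-198746500) had 0 of 184 and 1 of 328. One in an intron of SLC44A3-AS1 (chr1:95179001-95179500) had 0 of 148 and 1 of 259. At the site in an intron of CCDC6 (chr10:61599501-61600000) the order was the other way, with 12 of 211 calls methylated in OCI-AML3 (5.69%, Wilson interval 3.28% to 9.68%) and 2 of 276 in AML5 (0.725%, 0.199% to 2.60%).

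Of the listed blood genes, 20 of 42 transcription factors were the nearest protein-coding gene of at least 1 site, with 47 sites in all, or 8.84 per 1000 sites beside 7.46 per 1000 bins with highly methylated flanks. All eligible bins gave 5.78 per 1000. KLF6 had 6 sites among 588 bins with highly methylated flanks, KLF4 5 among 569 and MYC 4 among 768. RUNX2 had 4 among 285, RUNX3 3 among 242 and IRF8 3 among 214. In all there were 5316 sites among 940416 such bins. These were the listed factors with most sites, and each of the others had 2 or fewer. MYC fell below the rate of all such bins, and so did some of the others, as RUNX1 with 1 among 814 and ERG with 1 among 310. MEF2C with 361 such bins, FOSL2 with 274 and MEIS1 had none. Others lay above that rate, as LMO2 with 2 among 116. Of 30 myeloid genes 7 were nearest to 8 sites, 1.505 per 1000 beside 1.566, and beside 1.25 of all eligible bins. The lists of other tissues gave 13 sites for lymphoid genes (2.45 per 1000, beside 1.63, and 2.53 of all eligible bins), 13 for neural genes (2.45, beside 1.83, and 6.51 of all eligible bins) and 4 for erythroid genes (0.752, beside 0.185), of which 3 were nearest to TFRC, the transferrin receptor. No site was nearest to a liver gene, beside 0.254 per 1000, which at 5316 sites amounts to very few bins. Blood transcription factors and erythroid genes were thus above both backgrounds, the erythroid value of all eligible bins being 0.174 per 1000. For blood transcription factors the excess over bins with highly methylated flanks was small, at 8.84 beside 7.46 per 1000. The erythroid value rests on 4 sites. Myeloid, lymphoid and neural lists lay between their own backgrounds. No difference between a list and its background was tested.

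The 11 blood gene sites described here, chosen for their large contrast, had bin levels of 0% to 10.6%. PTPRC encodes CD45, the phosphatase found on all nucleated blood cells, and its site lay 24.8 kb from the nearest coding TSS, with 0% in OCI-AML3 and 0.260% in AML5 inside flanks of 95.6% and 91.4%. RUNX2, a runt-domain factor, had a site in an intron (chr6:45413501-45414000) with 0 of 267 and 1 of 281 calls methylated, inside flanks of 88.2% and 93.8%. The site nearest to ZEB2, at chr2:146450501-146451000 in an intron of a gene without a symbol, lay 1172 kb from it and had 0 of 47 and 10 of 98 calls methylated. With 47 calls in OCI-AML3 a level below 6.38% was not detectable there.

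RUNX1, a master regulator of blood stem cells, had 1 site among 814 bins with highly methylated flanks. It lay in an intron (chr21:37030501-37031000) with ETS and AP-1 matches, and 2 of 96 and 1 of 144 calls were methylated. CXCR4, the receptor that holds blood stem cells in the marrow, had a site 17.0 kb away (chr2:136893501-136894000) with 1 of 318 and 0 of 245. At a site 61.2 kb from CD44, an adhesion receptor, 1 of 105 and 2 of 208 calls were methylated. The site nearest to KLF6, 59.7 kb away at chr10:3762501-3763000, held ETS, RUNX, AP-1 and C/EBP matches and had 0 of 62 and 2 of 98 calls methylated, inside flanks of 83.2% and 85.3%. At the CEBPB site, 148 kb away, the counts were 16 of 305 and 10 of 316, and the run below 50% measured 915 bp in OCI-AML3 and 456 bp in AML5. The KLF4 site, 666 kb away, had 0 of 45 and 6 of 63.

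The remaining 2 of these sites were nearest to MYC, the proliferation factor. One lay 20.9 kb from its TSS, with 1 of 207 and 1 of 208 calls methylated, and the run below 50% measured 1315 bp in both lines. The other lay 995 kb away in an intron of CCDC26, with 0 of 143 and 0 of 172 calls methylated and RUNX, C/EBP and GATA matches. Its run below 50% measured 491 bp in OCI-AML3 and 41 bp in AML5.

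**Figure D2:**
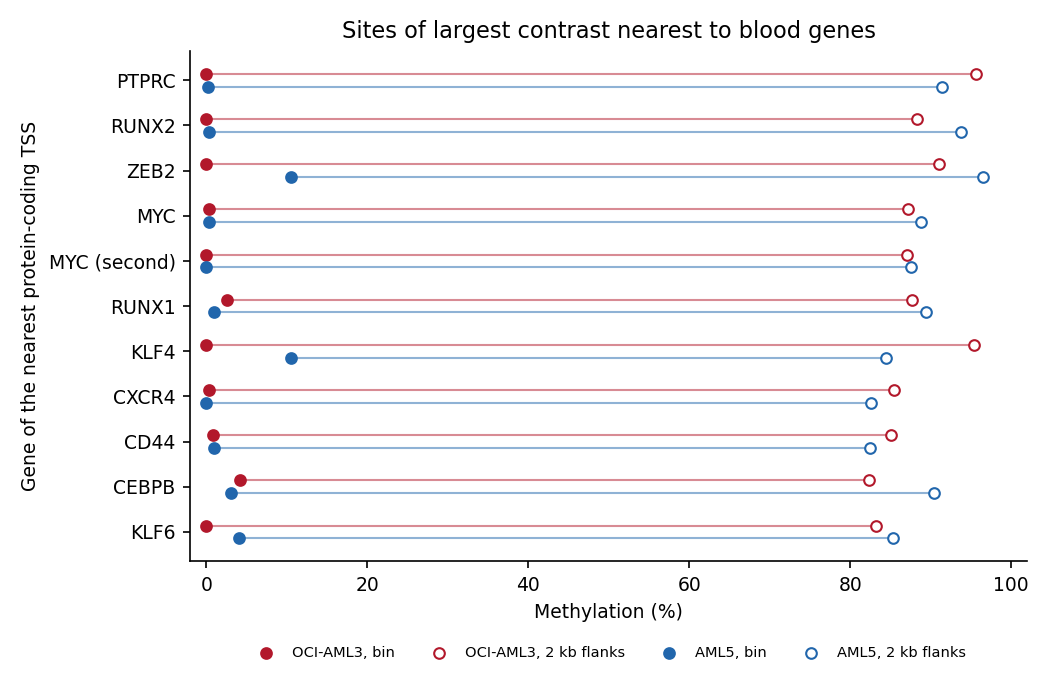
Methylation (%) of the bin (filled) and of its 2 kb flanks (open) in OCI-AML3 (red) and AML5 (blue) at 11 sites of large contrast nearest to listed blood genes, 1 library a line and no error bars. All bins lie between 0% and 10.6% and all flanks between 82.3% and 96.5%.

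The extremes of the flank difference were far apart. In an intron of LINC02505 (chr4:36603001-36603500), flanks of 89.96% in AML5 stood beside 4.52% in OCI-AML3, and the run below 50% measured 7701 bp in OCI-AML3 and 295 bp in AML5. In an intron of RUFY4 (chr2:218911001-218911500) no call was methylated in either bin, of 146 and 83, and the flanks were 2.21% in OCI-AML3 and 83.1% in AML5. At chr9:121291501-121292000, between genes, the flanks were 16.7% and 95.4%. Here the small site of AML5 lay inside a larger unmethylated stretch of OCI-AML3, and flanks below 20% in OCI-AML3 were found at 22 sites in all.

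In the other direction the rule left room for smaller differences only, since AML5 flanks had to exceed 70%. In an intron of TNR (chr1:175621501-175622000) the flanks were at 72.7% in AML5 and higher by 22.4 percentage points in OCI-AML3. In an intron of AIG1 (chr6:143519501-143520000) they were 97.2% and 75.2%, and in an intron of SGCZ 92.9% and 70.6%. Bin levels at the TNR and AIG1 sites were 10.4% to 19.6%, near the limit of the rule.

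The sites were spread as single bins over all autosomes. Joined where adjacent, they made 5191 regions, of which 5068 (97.6%) were 1 bin, 121 were 2 bins and 2 were 3 bins, with a median distance of 282000 bp from one to the next. A bin next to a site lies in its 2 kb flanks, whose AML5 average the rule holds high. The rule thus selects against adjacent sites and against wider unmethylated stretches in AML5, so the share of single bins is a description. Per 1000 bins with highly methylated flanks, the number of sites ranged from 4.39 on chromosome 22 to 7.35 on chromosome 20. Of all sites, 2971 (55.9%) were inside a gene, beside 59.7% of eligible bins and 63.9% of bins with highly methylated flanks. By centre, 2856 (53.7%) were intronic, 115 (2.16%) exonic and 2345 (44.1%) intergenic, beside 57.0%, 2.67% and 40.3% of eligible bins. The median distance to the nearest TSS was 17226.5 bp, beside 19249 bp over eligible bins and 16104 bp over bins with highly methylated flanks. Over 100 kb from any TSS lay 240 sites (4.51%), beside 6.21% and 3.65%.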

How the data were processed

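Methylation was measured by whole-genome bisulfite sequencing in 1 library of OCI-AML3 and 1 of AML5. The deposited values are counts, for each CpG dinucleotide, of calls read as methylated and as unmethylated, both strands summed. The authors aligned paired reads to hg19 with Bismark, and the submitters' processing notes name Bowtie 0.12.8. Whether duplicate reads were removed is not given in the sources used here. The columns have no names, and the one taken as methylated holds 0.168% and 0.101% of mitochondrial calls, which are nearly all unmethylated.

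The members, motifs and gene lists were chosen with earlier results of these data known. CpG dinucleotides read 10 or more times in both lines were averaged in 500 bp bins, with TSSs of all transcripts in GENCODE 44 lifted to GRCh37. A flank level is the mean of the means of its sides. Motifs were searched on both strands of the reference. Named sites were the 8 of largest contrast with 5 or more CpG dinucleotides, CTCF sites among the 30 of largest contrast, up to 12 nearest to listed blood genes, the 3 largest flank differences in each direction, and bins beside each limit. The LRP2, DCAF4 and SHLD1 sites were shown for their sequence. One of those nearest to blood genes is not reported here. Profiles around motifs were added after the data were seen.

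Outer flanks were compared by Fisher's exact test with Benjamini-Hochberg adjustment. The procedure was tested on simulated data. Median intervals are from order statistics. Python 3.11.15, numpy 2.4.6, pandas 2.3.3, scipy 1.17.1, numba 0.67.0, pysam 0.24.0 and matplotlib 3.10.9 were used.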

Additional observations from a re-analysis of the deposited data

How the results depend on the processing

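The number of sites, the median flank difference, and the shares of sites inside a gene, with a CTCF motif and with outer flanks called lower were recomputed under 12 other settings of the rule. The number of sites stayed within 1.5 times of 5316 in 8 of them. It was 2864 with levels below 10%, 9284 with levels below 30%, 2820 with flanks above 70% in both lines, and 11158 with 3 to 9 CpG dinucleotides counted in the reference in place of those read 10 times. The last setting also admits bins with fewer than 3 CpG dinucleotides read 10 times in both lines. In those 4 settings, in that order, the median flank difference was -8.98, -11.0, -4.53 and -12.2 percentage points, and the share with outer flanks called lower in OCI-AML3 was 34.1%, 44.9%, 21.8% and 49.1%. The share with a CTCF motif was 7.54% with levels below 10%, 5.54% with levels below 30% and 3.88% with CpG dinucleotides counted in the reference. The share inside a gene was 58.0% with levels below 10% and 59.5% with flanks above 70% in both lines.

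With at least 20 reads per CpG dinucleotide, the flank difference was -9.26 points and the outer flank share 36.6%. With each AML5 flank above 70%, these were -9.30 and 36.7%, and the CTCF share was 7.88%. Over 10 kb from every TSS, they were -10.4 and 43.0%, and the share inside a gene was 54.1%. With bins shifted by 250 bp the outer flank share was 38.9%. The looser CTCF pattern was found in 13.7% of sites, and in 3.97% of eligible bins. All other values of the flank difference and of the shares stayed within the 95% interval of the reported value. The number of sites has no such interval. The flank difference was negative in all 12 settings. The cause of these moves was not tested, apart from flanks above 70% in both lines, which by construction leaves out sites with OCI-AML3 losses.

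No paired analysis was possible because each line has 1 library. Leaving out a library was not possible for the same reason. Sites rest on as few as 30 calls, and CpG dinucleotides read under 10 times in a line did not enter the rule.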

Other observations

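The sites were nearest to 3402 protein-coding genes, of which 2239 had 1 site and 79 had 5 or more. The genes with most sites were outside the rule for named sites and were chosen after their values were seen. JARID2, a subunit of the Polycomb complex that methylates histone H3, had 10 sites among 830 bins with highly methylated flanks. NR2F2, a nuclear receptor, had 9 among 713. ETS1, an ETS factor of lymphoid cells, had 8 among 476, CTNND2 8 among 311 and AJAP1 8 among 74. Several genes had 7 sites, namely ADGRL3 among 982 such bins, TNS3 among 704, CD83 among 635 and FOXN3 among 633. Also with 7 were RBMS1 among 281, SOX6 among 272, BCAS1 among 224 and LINGO2 among 181. CD83 is a surface protein of mature dendritic cells. Over all genes there were 5316 sites among 940416 bins with highly methylated flanks.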
